A study of Mus musculus with 20 samples.

Results

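Iron and heme handling was followed through 9 genes, chosen by name, among 50600 gene entries measured in sorted colonic eosinophils and macrophages. The genes were Hmox1, Blvrb and Slc48a1 for heme, Tfrc, Slc11a1 and Slc40a1 for iron transport, and Fth1, Ftl1 and Ncoa4 for iron storage. All 9 were found in the tables of both cell types. RNA came from C57BL/6 mice and was profiled by CEL-Seq, a method that barcodes and sequences the 3′ ends of polyadenylated transcripts. There were 7 libraries of eosinophils from inside colonic tumors and 2 of eosinophils from naive colon. Macrophages gave 6 libraries from inside tumors and 5 from naive colon. The tumors followed an induction that the labels name only as CAC. The naive mice were wild type and are labelled as controls, and no transgene or Cre line is named. Cells were sorted by flow cytometry after digestion of the colon. The sources used here do not give the sorting markers, the age of the mice or the number of mice behind a library. Nothing in the labels says that libraries of a group came from separate mice, so p-values measure the spread between libraries, which may in part be technical.

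Cells take up iron bound to transferrin through the transferrin receptor, store it in the ferritin shell and release it through ferroportin. Macrophages also gain iron from heme, which heme oxygenase opens after hemoglobin has been broken down in the phagosome. When iron is scarce, the iron regulatory proteins bind a stem-loop called the iron responsive element. Bound in the 5′ UTR it holds back translation, as in the ferritins and ferroportin, and bound in the 3′ UTR it protects the transcript, as in Tfrc. Much of the control of these genes therefore acts on protein, which was not measured here.

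The elements were searched in the UTRs of GENCODE M21 transcripts on GRCm38, and they are shown because they divide the genes by that mode of control. The pattern was a C at position 7, a stem of 5 bases, the loop CAGTGN and 5 bases that pair with the stem (G with T allowed), with 6 bases on each side of the stem-loop and its C. It was read on the transcript strand in windows of 29 bases. It was found in 4 of the 9 genes. Among 21877 genes with a coding transcript, 0.137% held it in a 5′ UTR and 0.585% in a 3′ UTR. Not every coding transcript of the 4 genes held the pattern. It lay in 4 of 5 for Fth1, 1 of 2 for Ftl1 and 1 of 4 for Slc40a1, and each Tfrc match lay in 1 of 3. The sequences are given 5′ to 3′ on the transcript strand, and the capitals mark the loop at positions 13 to 18.
Fth1 5′ UTR, chr19:9982732-9982760, plus strand: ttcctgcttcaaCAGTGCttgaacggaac
Ftl1 5′ UTR, chr7:45459779-45459807, minus strand: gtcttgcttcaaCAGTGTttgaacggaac
Slc40a1 5′ UTR, chr1:45925465-45925493, minus strand: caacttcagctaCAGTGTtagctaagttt
Tfrc 3′ UTR, chr16:32631219-32631247, plus strand: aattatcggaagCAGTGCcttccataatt
Tfrc 3′ UTR, chr16:32631598-32631626, plus strand: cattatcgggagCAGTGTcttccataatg
Tfrc 3′ UTR, chr16:32631663-32631691, plus strand: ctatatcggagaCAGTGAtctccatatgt
Tfrc 3′ UTR, chr16:32631710-32631738, plus strand: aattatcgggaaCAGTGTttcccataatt
The ferritin elements carry the same stem, ttcaa against ttgaa, and the pattern matched at 4 places in the 3′ UTR of Tfrc. An element that departs from this pattern would not be found. The other 5 genes held no such letters in the UTRs searched. A match is a pattern of letters, and binding was not measured.

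Recovered depth was 1978466 to 8520874 reads in tumor and 4452513 and 7469714 in naive eosinophils, and 2289383 to 7636153 in tumor and 1477255 to 7945096 in naive macrophages. Values below are normalised read counts, scaled by the authors within each cell type's table. Differences are on the scale of log2(normalised read count + 1), tumor minus naive, ± SE, with p adjusted over all genes tested in limma. A gene is called at an adjusted p under 0.05. Each sort carried more of its own cell type's markers than the other sort did. Jointly scaled reads of 10 eosinophil markers summed to 4469 to 54341 in tumor and 10410 and 16322 in naive eosinophils, against 31.4 to 173 in tumor and 122 to 307 in naive macrophages, where Epx was at 0 in every tumor and Prg3 in every naive library. Jointly scaled reads of 16 macrophage markers summed to 5635 to 9421 in tumor and 5056 and 6806 in naive eosinophils, against 115448 to 158071 in tumor and 98551 to 133759 in naive macrophages. Siglecf, Ccr3 and Il5ra, 3 of 10 eosinophil markers tested, were called lower in tumor than in naive eosinophils, and 0 were called higher. Of all genes tested there, 2.21% were called lower and 2.42% higher. The median difference of the 10 markers went the other way, at 1.97, so the list did not fall as a whole. Both sorts also carried transcripts of other cells. Jointly scaled reads of 12 neutrophil markers summed to 26577 to 85167 in tumor and 37740 and 77287 in naive eosinophils. In every eosinophil library this sum was larger than that of the eosinophil markers. The lists hold different genes, so the sums do not give shares of cells. The neutrophil sums were 499 to 3472 in tumor and 153 to 255 in naive macrophages. Jointly scaled reads of 10 B and plasma cell markers summed to 40453 to 88861 in tumor and 30155 and 44952 in naive eosinophils, and to 34759 to 333840 in tumor and 80886 to 373986 in naive macrophages. Those of 12 epithelial markers summed to 33251, 31293 and 29697 in tumor eosinophil libraries 1, 2 and 3, to 11033 to 14625 in the other 4, and to 16624 and 11756 in naive eosinophils. The epithelial sums were 5555 to 10301 in tumor macrophages and 2815 to 16760 in naive macrophages. Tumor eosinophil libraries 2 and 3 also stood apart in their share of mitochondrial reads, with 34.92 and 35.15%, while the other eosinophil libraries had 15.19 to 25.11%. In RNA from sorted pools, fewer cells of a type and less RNA per cell cannot be told apart.

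In tumor eosinophils Hmox1 was the gene of the set that rose, by 1.36 ± 0.32 on the log2 scale or 2.57-fold (limma, adjusted p = 0.032). Tfrc was also higher in every tumor library than in both naive ones, but was not called. Neither ferritin chain, nor the transporters Slc11a1 and Slc40a1, nor Blvrb and Slc48a1, passed the test. Of 8 genes tested, 1 was higher and 0 were lower, where 2.42% of all 12984 genes tested were called higher, 2.21% lower and 4.63% in either direction. At an unadjusted p under 0.05 in limma there were 2 of the 8, Hmox1 and Tfrc, both higher. Of all 12984 genes tested, 2557 had such a p in limma, so 2 of 8 is near the background. With edgeR Hmox1 alone was called. The median difference of the 8 was 0.44, against 0.01 over all genes tested. Ncoa4 did not pass the filter on low values.

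Hmox1 encodes heme oxygenase 1, the inducible enzyme that opens heme into biliverdin, carbon monoxide and iron (GRCm38, chr8:75093621-75100589, plus strand). Its normalised read count in the 7 tumor eosinophil libraries was lowest at 79.3, had a median of 95.9 and was highest at 140, against 42.9 and 35.0 in the 2 naive ones. The groups did not overlap, as was so, upward, for 7.32% of all genes tested. The means were 103 ± 21.5 (SD, n = 7) in tumor and 39.0 ± 5.59 (SD, n = 2) in naive eosinophils. The call was lost without naive library 2 (1.22, adjusted p = 0.272), without tumor library 4 (1.32, adjusted p = 0.0591), without tumor library 7 (1.34, adjusted p = 0.0555), with limma-voom (1.39, adjusted p = 0.134) and without the filter on low values (adjusted p = 0.0506). Without tumor libraries 2 and 3 together, a setting added after seeing the data, it was 1.44 (adjusted p = 0.0471), and without libraries 1, 2 and 3, likewise added, 1.53 (adjusted p = 0.0463).

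Macrophages express far more Hmox1, so macrophage transcripts in the eosinophil sorts are given beside it. Of 13 macrophage markers tested in eosinophils, 5 rose in tumors, including C1qb by 2.10, C1qc by 1.94, Apoe by 1.93 and Ctss by 1.80, and 1 fell, Adgre1, by 2.20. Cd163 was at 0 in both naive eosinophil libraries. For every 1000 reads of the 16 macrophage markers there were 12.5 to 25.1 reads of Hmox1 in tumor eosinophils (median 17.9), against 6.45 and 11.7 in naive eosinophils. The same ratio was 13.2 to 21.1 in tumor macrophages and 5.99 to 18.9 in naive macrophages. The eosinophil groups stayed apart on this ratio, and the tumor eosinophils lay within or close to the range of the tumor macrophages. For every 1000 reads of the 3 C1q genes, Hmox1 had 44.2 to 142 reads in tumor eosinophils, against 104 and 141 in naive eosinophils, and on this ratio the groups overlapped. The C1q ratio was 38.8 to 76.4 in tumor macrophages and 16.1 to 59.7 in naive macrophages. Both naive eosinophil libraries lay above these ranges, and the tumor eosinophils reached from inside them to above them. The place of the eosinophils beside macrophages therefore differs with the markers used. The part of macrophage RNA in the Hmox1 difference was not tested.

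**Figure D1:**
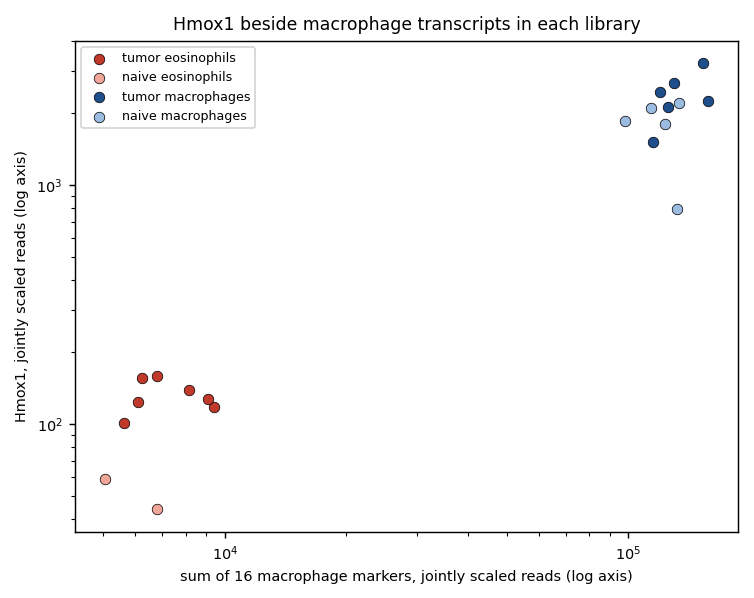
Hmox1 against the sum of 16 macrophage markers in each of the 20 libraries, both as jointly scaled reads on log axes; each point is a library, coloured by group. The 7 tumor eosinophil libraries have 101 to 159 jointly scaled reads of Hmox1 at a marker sum of 5635 to 9421, and the 2 naive eosinophil libraries lie below them at 43.9 and 59.1.

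Tfrc encodes the transferrin receptor, the main port of entry for transferrin-bound iron (chr16:32608920-32632794, plus strand). In tumor eosinophils its normalised read count was lowest at 390.01, had a median of 531 and was highest at 987, against 364 and 270.5 in naive eosinophils. All tumor libraries lay above both naive ones, yet the difference of 0.93 ± 0.35 had an adjusted p of 0.155 in limma. The highest tumor values, 987 and 833, were those of libraries 2 and 3, which carry the large mitochondrial share. These libraries also have high epithelial sums, 31293 and 29697. Library 1, with an epithelial sum of 33251, had 507 normalised reads of Tfrc. The part of epithelial RNA in the Tfrc values was not tested. Without libraries 2 and 3 the difference was 0.69 (limma, adjusted p = 0.233).

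The ferritin chains varied widely among tumor eosinophils. Fth1 encodes the heavy chain, which oxidises iron as it enters the shell (chr19:9980598-9985098, plus strand), and Ftl1 the light chain, which helps to mineralise it (chr7:45457944-45459884, minus strand). Fth1 had 5309 to 15643 normalised reads in tumor eosinophils (median 8263), against 7715 and 4773 in naive eosinophils. Ftl1 had 284 to 751 (median 427) in tumor eosinophils, against 477 and 268 in naive ones. For both genes the groups overlapped, and the differences of 0.53 ± 0.43 for Fth1 (limma, adjusted p = 0.537) and 0.35 ± 0.39 for Ftl1 (limma, adjusted p = 0.665) did not pass the test. The same 3 tumor libraries were lowest for both chains. Libraries 1, 2 and 3 had 5809, 5309 and 6849 for Fth1 and 341, 284 and 356 for Ftl1, and the other 4 had 8263 or more for Fth1 and 427 or more for Ftl1. These 3 are the tumor eosinophil libraries with the high epithelial sums, 29697 to 33251 against 11033 to 14625 in the other 4, and the part of epithelial RNA in the ferritin values was not tested. Without them the differences were 0.94 for Fth1 (limma, adjusted p = 0.17) and 0.72 for Ftl1 (limma, adjusted p = 0.295).

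Slc11a1, also called Nramp1, moves divalent metals out of the phagosome (chr1:74375195-74386062, plus strand). It was low in the same 3 tumor eosinophil libraries, with 782, 417 and 652 normalised reads, and ran from 992 to 1439 in the other 4, against 730.3 and 784 in naive eosinophils. The groups overlapped, and the difference was 0.26 ± 0.42 (limma, adjusted p = 0.781). Without the 3 low libraries, which are those with the high epithelial sums, it was 0.71 (limma, adjusted p = 0.198). The iron exporter ferroportin, encoded by Slc40a1 (chr1:45908068-45926523, minus strand), had 120.4 to 245 normalised reads in tumor eosinophils (median 201), against 182 and 281 in naive eosinophils. Its difference of -0.30 ± 0.32 did not pass the test (limma, adjusted p = 0.649).

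Blvrb, a reductase that acts on biliverdin and flavins (chr7:27447978-27466144, plus strand), was sparse in eosinophils. It had 6.19 to 27.6 normalised reads in tumor eosinophils (median 23.2), against 9.86 and 13.3 in naive eosinophils. Tumor library 7 was the lowest, and the other 6 lay above both naive libraries. The difference of 0.68 ± 0.57 did not pass the test (limma, adjusted p = 0.55). Slc48a1, the heme transporter HRG1 that moves heme from the phagolysosome to the cytosol (chr15:97778520-97792692, plus strand), had 82.1 to 165 normalised reads in tumor eosinophils (median 142), against 239 and 132 in naive eosinophils. Its groups overlapped, with a difference of -0.44 ± 0.36 (limma, adjusted p = 0.54).

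Ncoa4 encodes the receptor that delivers ferritin to the lysosome for breakdown (chr14:32159865-32179855, plus strand). It was near the limit of detection in every group. Summed over libraries it had 13 reads in tumor eosinophils and 22 in naive eosinophils, and 52 in tumor macrophages and 30 in naive macrophages. Tumor eosinophil libraries 5 and 7 had 0 reads, which allows up to 3 reads, or 2.19 and 4.64 on the normalised scale, counting error only. The eosinophil libraries with reads had at most 2.58 normalised reads in tumors, against 4.64 and 16.9 in naive colon. Without the filter the difference in eosinophils was -2.23 ± 0.87 (limma, adjusted p = 0.289), a fitted value that rests on a handful of reads.

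**Figure D2:**
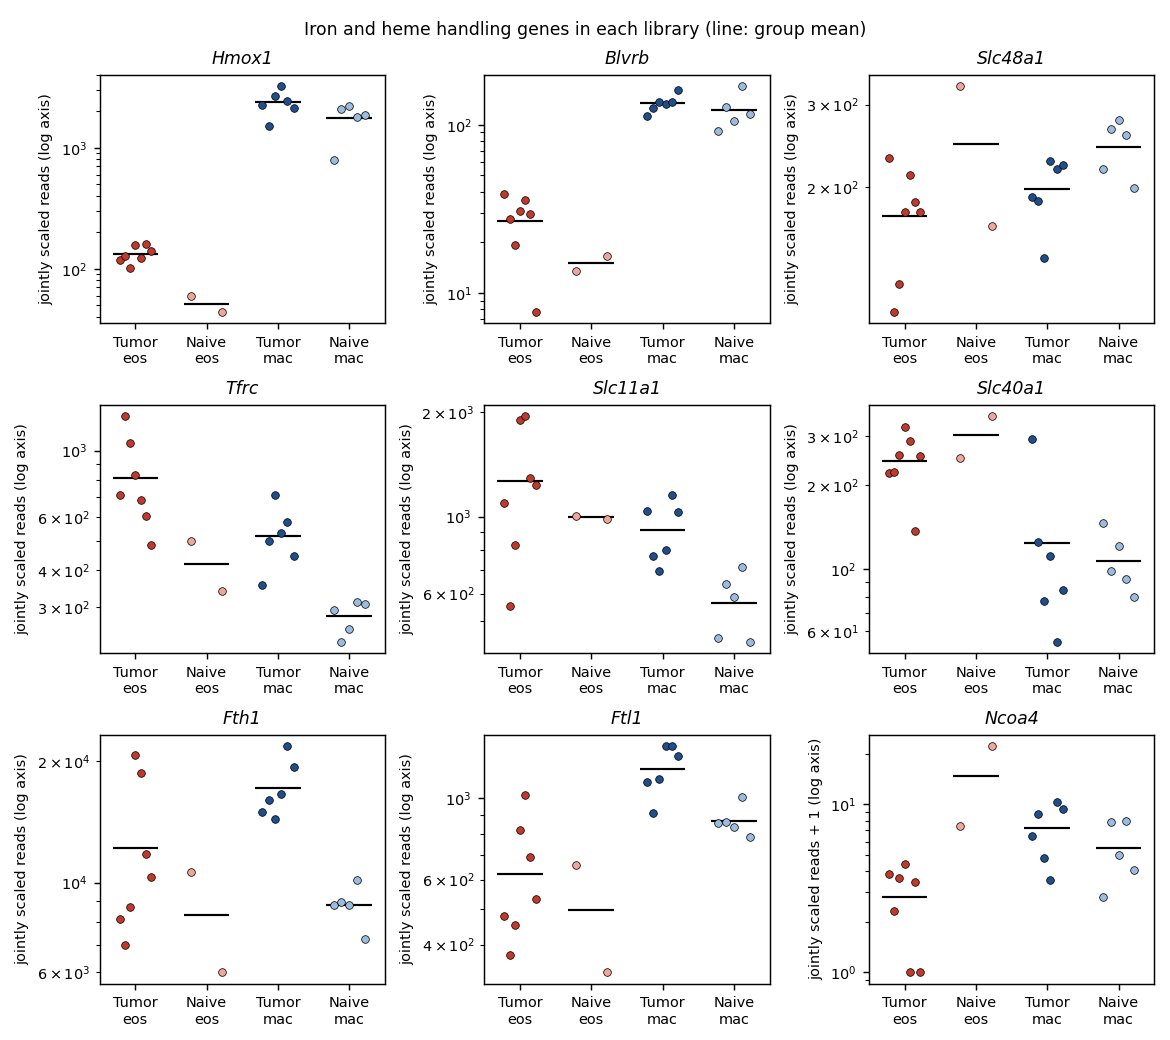
The 9 iron and heme genes in each library, as jointly scaled reads on log axes (reads + 1 for Ncoa4), with tumor and naive eosinophils and then tumor and naive macrophages along the horizontal axis; each point is a library and each line the group mean. Hmox1 and Blvrb lie lower in eosinophils than in macrophages, and Fth1 and Tfrc lie higher in all 6 tumor than in all 5 naive macrophage libraries.

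In tumor macrophages the genes called belonged to the storage and transport of iron. Fth1 rose 1.84-fold, Tfrc 1.72-fold, Slc11a1 1.54-fold and Ftl1 1.30-fold. Hmox1, Blvrb, Slc48a1 and Slc40a1 did not pass the test. Of 8 genes tested, 4 were higher and 0 lower, where 8.49% of all 11536 genes tested were called higher, 8.61% lower and 17.1% in either direction. At an unadjusted p under 0.05 in limma there were 5 of the 8, the same 4 and Slc48a1, which was lower. Of all 11536 genes tested, 3505 had such a p in limma. With edgeR Fth1, Tfrc and Slc11a1 were called, with 0 lower. The median difference of the 8 was 0.39, against 0.03 over all genes tested. With 4 of 8 called higher, the share in the set lay above the 8.49% of all genes tested. Members chosen with earlier results of these data known give that share no independent weight.

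Fth1 had 12691 to 19154 normalised reads in the 6 tumor macrophage libraries (median 14369), against 8590, 7999, 8415, 9163 and 7181 in the 5 naive ones. The groups did not overlap, as was so, upward, for 5.19% of all genes tested. The means were 15284 ± 2321 (SD, n = 6) in tumor and 8269 ± 738 (SD, n = 5) in naive macrophages. The difference was 0.88 ± 0.14 (limma, adjusted p = 0.000555). Ferritin has many near-identical copies in the genome, and the sources used here do not give how the authors assigned shared reads. Of 14 ferritin copies or pseudogenes listed in the tables, 3 had reads, 12 reads in all over the 20 libraries, against 295391 of Fth1 and 20481 of Ftl1.

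Ftl1 had 814 to 1214 normalised reads in tumor macrophages (median 1097), against 833, 769, 798, 907 and 777 in naive macrophages. The groups overlapped through tumor library 2, which was the lowest of the 6. The means were 1069 ± 151 (SD, n = 6) in tumor and 817 ± 56.1 (SD, n = 5) in naive macrophages, and the difference of 0.38 ± 0.12 was just past the threshold (limma, adjusted p = 0.0482). The call was lost without naive library 1, 2, 3 or 5, without tumor library 1, 3, 4, 5 or 6, with edgeR and without the filter on low values, at values of 0.34 to 0.40 and adjusted p up to 0.107.

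Tfrc had 339 to 629 normalised reads in tumor macrophages (median 453), against 287, 206, 244, 283 and 307 in naive macrophages. Every tumor library lay above every naive one. The means were 462 ± 101 (SD, n = 6) in tumor and 265 ± 40.3 (SD, n = 5) in naive macrophages, a difference of 0.78 ± 0.16 (limma, adjusted p = 0.00345). Fth1 and Tfrc, which carry the iron responsive element at opposite ends of the transcript, were both higher in tumor macrophages.

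Slc11a1 had 618 to 1012 normalised reads in tumor macrophages (median 798), against 437, 570, 561, 646 and 431 in naive macrophages. The highest naive library, 646, lay above the lowest tumor library, so the groups overlapped by that pair alone. The difference was 0.62 ± 0.16 (limma, adjusted p = 0.0161). The exporter gene Slc40a1 was not called. It had 48.3 to 279.7 normalised reads in tumor macrophages (median 85.4), against 143, 88.4, 116, 83.2 and 78.9 in naive macrophages, a difference of -0.06 ± 0.34 (limma, adjusted p = 0.929). Tumor library 1 alone, at 279.7, lay outside the range of the naive libraries on the high side, while 3 tumor libraries, at 48.3, 68.2 and 73.6, lay below it.

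None of the 3 heme genes was called in macrophages. Hmox1 had 1358 to 2828 normalised reads in tumor macrophages (median 2148), against 774, 1873, 2127, 1633 and 1842 in naive macrophages. Naive library 1 was low, and the groups overlapped. The difference was 0.40 ± 0.24 (limma, adjusted p = 0.28). Blvrb had 108 to 139.9 normalised reads in tumor macrophages (median 118), against 89.2, 114, 102, 154 and 115 in naive macrophages, a difference of 0.08 ± 0.15 (limma, adjusted p = 0.776). Slc48a1 had 125 to 199 (median 187) in tumor macrophages, against 214, 237, 266, 233 and 197 in naive macrophages. The overlap for Slc48a1 was narrow, and its difference of -0.39 ± 0.14 missed the threshold (limma, adjusted p = 0.0823).

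**Figure D3:**
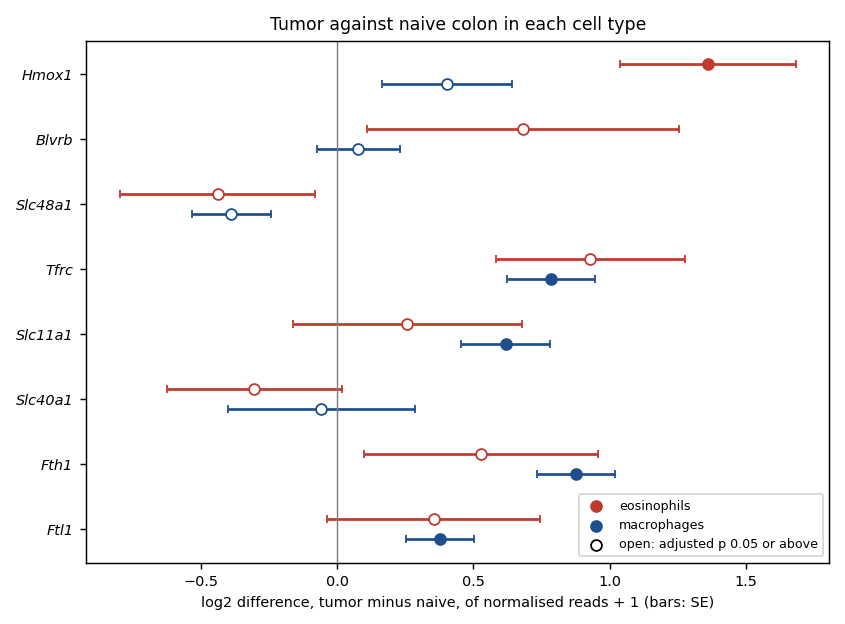
The log2 difference, tumor minus naive, of normalised reads + 1 for the 8 iron and heme genes tested, eosinophils above macrophages for each gene; points are limma estimates, bars are ± SE and filled points have an adjusted p under 0.05. Hmox1 at 1.36 is the filled point of the eosinophils, and Fth1 at 0.88, Tfrc at 0.78, Slc11a1 at 0.62 and Ftl1 at 0.38 are those of the macrophages.

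The tumor effects of the 2 cell types were not shown to differ for any of the 8 genes. All 20 libraries were fitted together after joint scaling, and the effect in eosinophils minus that in macrophages was tested. Of the 8 genes 0 were called, where 4.16% of all 14992 genes tested were, 280 upward (1.87%) and 344 downward (2.29%). With median-of-ratios scaling the split over all genes was 326 upward and 214 downward, and the median difference of all genes moved up by 0.13. Among the 8, 1 had an unadjusted p under 0.05 in limma, Hmox1, as did 2823 of all 14992 genes tested. With edgeR none of the 8 was called. The Hmox1 difference of tumor effects was 0.85 ± 0.39 (limma, adjusted p = 0.231). The Hmox1 difference was called only without naive macrophage library 1, the one low in Hmox1 (1.13, adjusted p = 0.0478). For Fth1 the difference was -0.46 ± 0.42 (limma, adjusted p = 0.605), for Slc11a1 -0.47 ± 0.43 (limma, adjusted p = 0.597) and for Tfrc 0.04 ± 0.37 (limma, adjusted p = 0.972). Without tumor eosinophil libraries 1, 2 and 3 the differences were -0.05 for Fth1, -0.03 for Slc11a1 and -0.21 for Tfrc, with adjusted p of 0.741 to 0.971 in limma. These standard errors leave room for differences of the size of the effects themselves.

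Levels were set against each other between the cell types on jointly scaled reads. In tumors, eosinophils had less Hmox1, Blvrb, Ftl1 and Fth1 than macrophages and more Slc40a1 and Tfrc. Of the 8 genes, 2 were higher and 4 lower in eosinophils, where 18.9% of all genes tested were called higher, 24.2% lower and 43.1% in either direction. In naive colon 1 was higher and 3 were lower, where 14.7% were called higher, 15.5% lower and 30.2% in either direction. Calls are therefore common between these cell types, and the sizes say more than the counts.

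Hmox1 averaged 132 ± 20.9 jointly scaled reads (SD, n = 7) in tumor eosinophils and 2375 ± 575 (SD, n = 6) in tumor macrophages, 17.6-fold lower in eosinophils (log2 difference -4.14 ± 0.21, limma, adjusted p = 7.57e-13). In naive colon it averaged 51.5 ± 10.7 (SD, n = 2) in eosinophils and 1754 ± 563 (SD, n = 5) in macrophages, 31.8-fold lower (-4.99 ± 0.32, limma, adjusted p = 4.92e-11). The order of its levels was tumor macrophages, naive macrophages, tumor eosinophils and naive eosinophils, and among neighbours in that order the 2 macrophage groups alone overlapped. Eosinophil libraries lay below all macrophage libraries, as was so for 12.2% of all genes tested in tumors and 21.2% in naive colon. Blvrb ran in the same order. It was 5.29-fold lower in eosinophils than in macrophages in tumors (limma, adjusted p = 3.66e-07) and 7.52-fold lower in naive colon (limma, adjusted p = 1.04e-05). For Blvrb the eosinophil groups overlapped each other, as did the macrophage groups.

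Slc40a1 went the other way. It averaged 243 ± 58.9 jointly scaled reads (SD, n = 7) in tumor eosinophils and 124 ± 86.3 (SD, n = 6) in tumor macrophages, a difference of 1.14 ± 0.29 (limma, adjusted p = 0.00267). In naive colon it averaged 301 ± 72.9 (SD, n = 2) in eosinophils and 107 ± 26.2 (SD, n = 5) in macrophages, a difference of 1.49 ± 0.43 (limma, adjusted p = 0.0104) that was lost without naive eosinophil library 2 (1.24, adjusted p = 0.135). Its order was naive eosinophils, tumor eosinophils, tumor macrophages and naive macrophages, with each neighbouring pair overlapping.

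Tfrc was higher in tumor eosinophils, at 811 ± 283 jointly scaled reads (SD, n = 7), than in tumor macrophages, at 519.8 ± 121 (SD, n = 6), by 0.60 ± 0.21 (limma, adjusted p = 0.0217). That call was lost without naive macrophage library 5 (0.50, adjusted p = 0.0643) and without tumor eosinophil libraries 1, 2 and 3 together (0.39, adjusted p = 0.116). In naive colon the difference was 0.57 ± 0.31 (limma, adjusted p = 0.18). Of its levels, ordered as tumor eosinophils, tumor macrophages, naive eosinophils and naive macrophages, the last neighbouring pair did not overlap, with eosinophils above macrophages, as for 20.4% of all genes tested in naive colon. Slc11a1 ran from tumor eosinophils through naive eosinophils and tumor macrophages to naive macrophages, with every neighbouring pair overlapping and no call between cell types. Without tumor eosinophil libraries 1, 2 and 3 it was higher in tumor eosinophils than in tumor macrophages, by 0.85 (limma, adjusted p = 0.00135).

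Ftl1 was lower in eosinophils than in macrophages by 1.01 on the log2 scale in tumors (-1.01 ± 0.21, limma, adjusted p = 0.000442), and the difference was -0.61 without tumor eosinophil libraries 1, 2 and 3 (adjusted p = 0.0152). In naive colon its difference was -0.88 ± 0.31 (limma, adjusted p = 0.0363), and it was -0.39 (adjusted p = 0.525) without naive eosinophil library 2. The call in naive colon was also lost with edgeR, without any of naive macrophage libraries 1 to 4, and without tumor macrophage library 1, 3 or 6, at an adjusted p up to 0.0784. Fth1 differed by -0.59 ± 0.23 in tumors (limma, adjusted p = 0.0464) and by -0.13 ± 0.35 in naive colon (limma, adjusted p = 0.822). The Fth1 call in tumors was lost with edgeR (-0.45, adjusted p = 0.116), with median-of-ratios scaling (-0.49, adjusted p = 0.097) and without any single library except naive macrophage library 5 and tumor eosinophil libraries 4 and 5. Without tumor eosinophil libraries 1, 2 and 3 it was -0.15 (adjusted p = 0.61). Slc48a1 was not called, with -0.21 ± 0.20 in tumors (limma, adjusted p = 0.403) and -0.05 ± 0.30 in naive colon (limma, adjusted p = 0.917).

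The wider pathway was read from 68 genes in 9 lists, of which 65 were found in the tables. In eosinophils 51 were tested, 5 were higher and 0 lower in tumors, with a median difference of 0.16, where 2.42% of all genes tested were higher and 2.21% lower, with a median of 0.01. In macrophages 56 were tested, 14 were higher and 2 lower, with a median of 0.11, where 8.49% of all genes tested were higher and 8.61% lower, with a median of 0.03. The counts of single lists below are to be read against these shares, which differ between the cell types. The lists were chosen with earlier results of these data known.

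**Figure D4:**
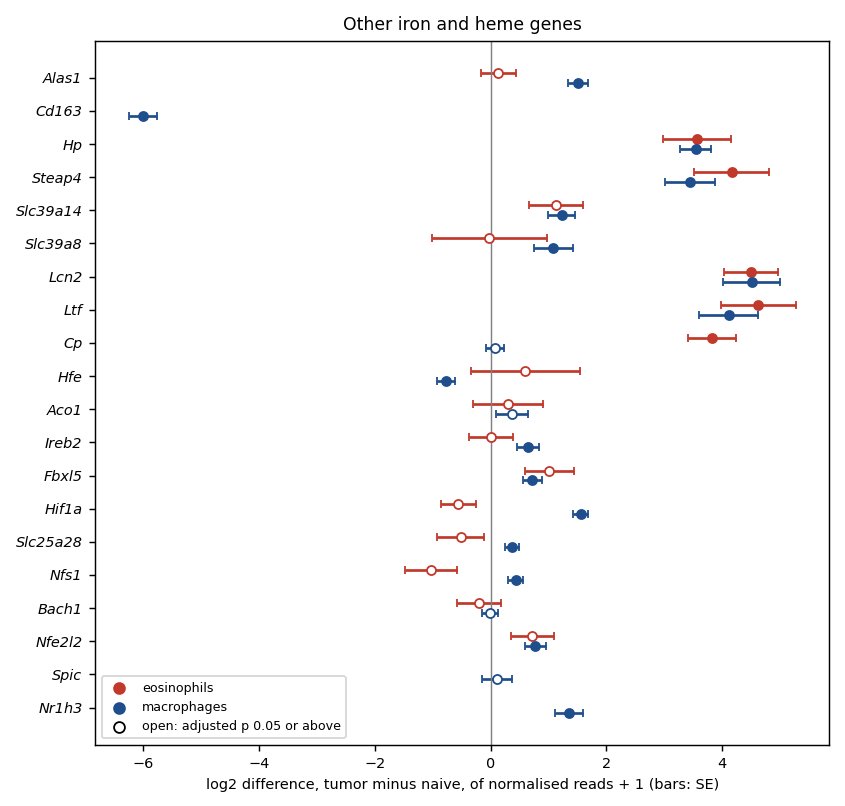
The log2 difference, tumor minus naive, of normalised reads + 1 for other iron and heme genes, eosinophils above macrophages; points are limma estimates, bars are ± SE and filled points have an adjusted p under 0.05, and a gene without a point was not tested in that cell type. Hp, Steap4, Lcn2 and Ltf are filled at 3.44 to 4.62 in both cell types, Cp is filled in eosinophils at 3.82, and Cd163 lies at -6.01 in macrophages.

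Hp, Lcn2, Ltf and Steap4 rose in both cell types. Hp encodes haptoglobin, which binds free hemoglobin. Its normalised read count was 29.7 to 192 in tumor eosinophils, against 4.64 and 10.9 in naive ones, and 64.5 to 165 in tumor macrophages, against 6.43 to 10.7 in naive ones. It rose by 3.56 ± 0.59 in eosinophils (limma, adjusted p = 0.00625) and by 3.54 ± 0.27 in macrophages (limma, adjusted p = 9.23e-07). Lcn2, which captures iron-loaded siderophores, rose by 4.50 in eosinophils and by 4.51 in macrophages. Ltf, lactoferrin, rose by 4.62 in eosinophils and by 4.11 in macrophages, and the endosomal metalloreductase gene Steap4 by 4.16 and by 3.44 in the same order of cell types. With limma-voom, Hp (adjusted p = 0.218), Ltf (adjusted p = 0.0868) and Steap4 (adjusted p = 0.0932) were not called in eosinophils. Steap4 had 0.58 and 13.3 normalised reads in the naive eosinophil libraries, against 51.9 to 111 in tumor eosinophils, and its difference was 2.58 without naive library 1 and 5.75 without naive library 2. For Ltf these values were 3.84 without naive library 1 and 5.41 without naive library 2. In naive macrophages Ltf had 0.94 to 6.07 normalised reads and Steap4 0 to 3.66. Both genes passed the filter in macrophages through tumor libraries alone, so the sizes of these rises rest on naive values near 0. Over the alternatives the macrophage rises ran from 3.16 to 4.88 for Ltf and from 2.29 to 3.71 for Steap4.

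Lcn2 and Ltf are also markers of neutrophils. Of 12 neutrophil markers tested in eosinophils 5 rose and 0 fell in tumors, where 2.42% of all genes tested were called higher. Of 8 such markers tested in macrophages 5 rose and 0 fell, where 8.49% of all genes tested were called higher. Lcn2 and Ltf are themselves on that list and are among the 5 in each cell type. The counts are therefore not independent of the rises they stand beside. Jointly scaled reads of the 12 markers summed to 26577 to 85167 in tumor eosinophils, against 37740 and 77287 in naive eosinophils. The sums were 499 to 3472 in tumor macrophages and 153 to 255 in naive macrophages. Mpo and Elane were at 0 in both naive eosinophil libraries. The part of neutrophil RNA in these differences was not tested.

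Cp encodes ceruloplasmin, a copper ferroxidase that works with ferroportin in iron export. It had 155 to 468 normalised reads in tumor eosinophils, against 25.5 and 14.5 in naive eosinophils, with no overlap. Its level was 335 to 574 in tumor macrophages and 304 to 488 in naive macrophages. The rise of 3.82 ± 0.41 in eosinophils (limma, adjusted p = 0.00111) stood against 0.07 ± 0.16 in macrophages (limma, adjusted p = 0.81), and the difference between the cell types, 3.66 ± 0.42, was called (limma, adjusted p = 1.45e-05).

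Cd163, the receptor that takes up haptoglobin-bound hemoglobin, was nearly lost from tumor macrophages. It had 1.75 to 3.59 normalised reads there (median 2.23), against 193, 208, 178, 345 and 179 in naive macrophages. It fell by 6.01 on the log2 scale (SE 0.25, limma, adjusted p = 2.25e-09). Hfe, a partner of the transferrin receptors, fell by 0.77 in macrophages, with 247 to 434 normalised reads in tumors and 458 to 607 in naive colon. In eosinophils Cd163 was too sparse to test, with 0 to 4.30 normalised reads in tumors and 0 reads in both naive libraries, which allows up to 1.74 and 3.62 on the normalised scale.

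Erythrocyte transcripts are given beside the heme genes. In macrophages 4 of 4 erythrocyte markers tested fell in tumors, with a median difference of -2.20, where 8.61% of all genes tested were called lower. In eosinophils 0 of 5 were called, where 4.63% of all genes tested were. Jointly scaled reads of 7 such markers summed to 525 to 2416 in tumor macrophages and to 1221 to 21828 in naive macrophages. Naive library 5 alone reached 21828, and the next naive library had 4075. In eosinophils the sums were 3890 to 12690 in tumors and 17502 and 6465 in naive colon. Every tumor eosinophil library thus lay above every tumor macrophage library. The part of erythrocyte RNA in the values of either cell type was not tested.

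In macrophages several regulators of iron and heme genes rose. Hif1a, a transcription factor of the hypoxia response, rose by 1.56 ± 0.13 (limma, adjusted p = 2.08e-06), with 865 to 1269 normalised reads in tumors and 287 to 382 in naive colon. Among the iron regulatory genes, Ireb2, which encodes iron regulatory protein 2, rose by 0.64 (limma, adjusted p = 0.0262), and Fbxl5, which marks that protein for breakdown when iron is present, rose by 0.72 (limma, adjusted p = 0.00712). The Ireb2 call was lost without naive library 1, 2 or 3 or tumor library 3, 5 or 6 (0.55 to 0.64). Aco1, which encodes iron regulatory protein 1, had 0.37 ± 0.27 (limma, adjusted p = 0.389). Nfe2l2, the activator of the antioxidant response to which Hmox1 belongs, rose by 0.77 (limma, adjusted p = 0.00805), while Bach1, the heme-sensing repressor of Hmox1, had -0.02 ± 0.13 (limma, adjusted p = 0.952). Spic, a transcription factor of heme-recycling macrophages, had 0.11 ± 0.26 (limma, adjusted p = 0.827), and Nr1h3, which encodes the oxysterol receptor LXR alpha, rose by 1.35 (limma, adjusted p = 0.00125).

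Of 5 iron regulatory genes tested in each cell type, 3 rose in macrophages, where 8.49% of all genes tested did, and 0 in eosinophils, where 2.42% did. In eosinophils Hif1a had -0.56 ± 0.30 (limma, adjusted p = 0.331), and the difference between the cell types, -2.23 ± 0.30, was called (limma, adjusted p = 0.000103). Fbxl5 had 1.01 ± 0.43 in eosinophils (limma, adjusted p = 0.209), and neither for Fbxl5 nor for Ireb2 was the difference between the cell types called (limma, adjusted p = 0.852 for Fbxl5 and 0.345 for Ireb2). Ireb2 in eosinophils had 0.01 ± 0.38, Aco1 0.30 ± 0.60, Nfe2l2 0.72 ± 0.37 and Bach1 -0.20 ± 0.39, with adjusted p of 0.315 to 0.992 in limma. Spic and Nr1h3 were too sparse there to test.

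Of 8 heme synthesis genes tested in macrophages 1 rose, Alas1, the first and, outside red cells, rate-limiting enzyme, by 1.51 ± 0.17 (limma, adjusted p = 2.41e-05), with 384 to 688 normalised reads in tumors and 134 to 200.3 in naive colon. With 8.49% of all genes called higher, 1 of 8 is near the background. In eosinophils Alas1 had 0.13 ± 0.30 (limma, adjusted p = 0.849). The difference between the cell types was -1.49 ± 0.33 (limma, adjusted p = 0.0123), and it was lost without naive eosinophil library 2 (-1.29, adjusted p = 0.15) and with limma-voom (-1.43, adjusted p = 0.0935).

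Of 7 iron import genes tested in macrophages 3 rose, Steap4 and the zinc and iron importers Slc39a14, by 1.22 (limma, adjusted p = 0.00219), and Slc39a8, by 1.08 (limma, adjusted p = 0.0399). Of 10 mitochondrial iron genes 2 rose there, the iron importer Slc25a28, by 0.38 (limma, adjusted p = 0.0435), and the cysteine desulfurase Nfs1 of iron-sulfur assembly, by 0.43 (limma, adjusted p = 0.0402). Both counts stand beside 8.49% of all genes called higher. The calls of Slc39a8, Slc25a28 and Nfs1 were lost without the filter on low values, that of Slc25a28 with edgeR too, and all 3 depended on single libraries. Slc39a8 was lost without naive library 2, 3 or 4 or tumor library 3, 4, 5 or 6 (0.94 to 1.08). Slc25a28 was lost without any library but naive 4 and tumor 3 (0.31 to 0.40), and Nfs1 without naive library 2, 3 or 4 or tumor library 1, 2, 4, 5 or 6 (0.38 to 0.45). For Nfs1 the difference between the cell types was -1.57 ± 0.41 (limma, adjusted p = 0.0307), was -0.92 without naive eosinophil library 2 (adjusted p = 0.442) and was also lost without naive macrophage library 3 or 4 or tumor macrophage library 5 or 6 (-1.54 to -1.52). That difference was lost as well without the filter (adjusted p = 0.0534), with limma-voom (-1.45, adjusted p = 0.0929) and with median-of-ratios scaling (-1.43, adjusted p = 0.055).

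The genes most like each member over the 4 groups were sought among 7443 genes, by the root mean square difference of group means on the joint log2 scale after centring each gene. For Hmox1 they were Il7r (0.126), Havcr2 (0.225) and the macrophage marker Ctss (0.225). For Tfrc they were the glycolytic genes Gapdh (0.026) and Tpi1 (0.0523), with Nudt18 (0.0519) between them. For Slc40a1 the closest was Kat5 (0.0232), for Slc11a1 Elmod2 (0.0325), for Blvrb Mcm3 (0.0591) and for Slc48a1 Dhdds (0.0196). Fth1 and Ftl1 had different closest genes, Grpel2 (0.0516) for Fth1 and Atp2a2 (0.0279) for Ftl1. Likeness over 4 group means describes these libraries, and how many genes lie at such distances was not counted.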

How the data were processed

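Per the labels' protocols, cells were sorted by flow cytometry, RNA was extracted with Trizol, and each CEL-Seq sample was made in 3 technical replicates with their own primer pools. The sources used here do not give how these were combined, the gene annotation or the use of strand. The submitters' processing notes name TopHat2 2.1.0 and Bowtie2 2.2.6, DESeq2 1.14.1, HTSeq 0.6.1, and build GRCm38.p5.

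The authors deposited 1 table per cell type, holding a normalised signal of gene read counts for 50600 entries. All 374526 non-zero values were whole multiples of the value of 1 read within 0.1 read, so read counts were recovered. Entries without a name, 27 per table, took up to 0.1323% of the reads in a library and stayed out of the text.

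Values were taken as log2(value + 1), and a mean per group was fitted within each cell type by limma 3.58.1 in R 4.3.3 (moderated with a trend, two-sided). Genes were kept at 10 or more in at least 2 eosinophil or 5 macrophage libraries. Fits of both cell types together used reads scaled by TMM factors (edgeR 4.0.16), kept at 10 or more in at least 2 libraries. P-values were adjusted by the Benjamini-Hochberg method over every gene tested. The quasi-likelihood test of edgeR on recovered reads was an alternative. It called 532 genes for eosinophils, 1949 for macrophages and 609 for their difference. The fits were tested on simulated data. Further alternatives were limma-voom, no filter, a pseudocount of 5, another scaling, a replicate block and leaving out each library.

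Members and lists were chosen with earlier results of these data known. Named were all members, every pathway gene called in a cell type, Nfe2l2, Bach1, Spic, Aco1 and Ireb2, ferritin copies, and the 3 genes most like each member. Intervals of counts cover counting error only. UTR sequences were read from GRCm38 with GENCODE M21.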

Additional observations from a re-analysis of the deposited data

Results flagged for a closer look

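Slc40a1 had 279.7 normalised reads in tumor macrophage library 1, far above the other 5 tumor macrophage libraries, which had 48.3 to 112. The gap to the nearest of them was 0.725 of the whole range of the 6. Of 27 groups of 4 to 10 libraries examined for a value far from the others, 1 had one, and chance gives about 1 in 20. Without that library the ferroportin difference in macrophages was -0.37 (limma, adjusted p = 0.321), against -0.06 with it (adjusted p = 0.929).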

How the results depend on the processing

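Precision was limited by the 2 naive eosinophil libraries and by few reads of Ncoa4, Blvrb and Cd163 in eosinophils. Hmox1 in eosinophils was called in 11 of 17 alternatives, and its values over the 17 were 1.19 to 1.53. The 11 include both settings added after seeing the data, and the 1.53 was without tumor libraries 1, 2 and 3. The macrophage alternatives hold no such setting. In macrophages Fth1 and Tfrc were called in all 17 alternatives, Slc11a1 in 16 and Ftl1 in 5. Where a result changed with a setting, the cause was not tested.

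Replicate numbers gave no clear sign of pairing. Deviations of same-numbered libraries from their group means correlated at 0.128 and 0.124 for tumor with naive eosinophils and at -0.31 to 0.055 for macrophages. Between the cell types they correlated at -0.079 to 0.135 in tumors and at -0.012 and 0.032 in naive colon. With 2 naive eosinophil libraries the deviations mirror each other, so the check cannot decide on pairing there. With the replicate block, 1130 genes were called in eosinophils, 1233 in macrophages, 111 for the difference of tumor effects and 2861 for levels in naive colon. Members called higher with the block were 0 in eosinophils (Hmox1 1.19, adjusted p = 0.11), 2 in macrophages (Slc11a1 0.59, adjusted p = 0.108; Ftl1 0.36, adjusted p = 0.158) and 0 for levels in naive colon. Turned in sign with the block were Fth1 (-0.13), Ftl1 (-0.20) and Slc11a1 (-0.40) in eosinophils and Slc40a1 (0.02) in macrophages. Of the pathway genes, the differences of tumor effects of Alas1 (-1.25, adjusted p = 0.118) and Nfs1 (-1.56, adjusted p = 0.214) were not called with the block, nor were Ireb2, Slc39a8, Slc25a28 and Nfs1 in macrophages (adjusted p = 0.0863 to 0.202).

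With limma-voom, 197 genes were called in eosinophils, with 0 members higher, and 141 for the difference. Without the filter, 405 were called for the difference, and 0 members were higher in eosinophils. Signs also turned, for values near 0 and without a call, for Slc40a1 in macrophages with edgeR (0.09) and TMM scaling (0.0), for the difference of tumor effects of Ftl1 with median-of-ratios scaling (0.01) and of Ftl1 (0.09), Tfrc (-0.19) and Slc48a1 (0.07) without tumor eosinophil libraries 2 and 3, of Ftl1 (0.23), Tfrc (-0.21) and Slc48a1 (0.02) without tumor eosinophil libraries 1, 2 and 3, and for the level of Slc48a1 in naive colon with edgeR (0.01).

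Leaving out 1 library at a time, the genes called were 93 (without naive library 2) to 953 (without naive library 1) in eosinophils and 168 to 1778 for the difference, without the same libraries. Members called higher were 0 to 1 in eosinophils, 0 to 1 for the difference, 1 to 3 for levels in tumors and 0 to 2 for levels in naive colon. Tumor effects ran from -0.06 to 0.77 for Ftl1 and from -0.62 to 0.01 for Slc40a1 in eosinophils, and from -0.37 to 0.13 for Slc40a1 and from -0.01 to 0.19 for Blvrb in macrophages. Differences of effects ran from -0.56 to 0.33 for Ftl1, from -0.19 to 0.30 for Tfrc and from -0.60 to 0.32 for Slc48a1. Levels in naive colon ran from -0.47 to 0.28 for Fth1 and from -0.48 to 0.44 for Slc48a1.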
